A study of Mus musculus and Homo sapiens with 33 samples.

Results

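The genes described here encode proteins of the centriole and the centrosome. They were taken as a list of 40 symbols and matched to the symbol column of an RNA-seq count matrix of 38924 genes, where 39 symbols had a row. All 39 passed the filter on low counts. The fortieth, Cep131, has no row under that symbol, but its Ensembl ID is present under the older symbol Azi1, and its values are given separately below.

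The libraries came from KPL cells, a murine lung adenocarcinoma line grown in serum. One group, with 3 RNA libraries, received 4-hydroxytamoxifen (4-OHT) to delete Lin9; exposure lasted 72 hours and the labels write the dose as 10 nm. The control group, named EtOH in the library descriptions, had 3 RNA libraries of the same line. The recombinase and the Lin9 allele behind the deletion, the age and origin of the line and whether it is 1 clone are not stated in the labels, and all 6 libraries share this background. No group of cells that keeps Lin9 was given 4-OHT, so effects of the drug itself and of the loss of Lin9 cannot be told apart. The labels do not describe the replicates as separate cultures, so p-values measure only how much these libraries vary, and that variation may be technical.

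A centriole is a cylinder of microtubules, and a pair of them, embedded in pericentriolar material, forms the centrosome. Each centriole is copied once per cell cycle: the kinase PLK4 recruits STIL and SAS-6, which build a cartwheel beside the old centriole in S phase, and further proteins then lengthen and cap the new cylinder. The pericentriolar material holds gamma-tubulin rings that start new microtubules, and it expands before mitosis under the kinases PLK1 and Aurora A. LIN9 is a core subunit of MuvB, which together with B-MYB activates genes of mitosis. The design asks how RNA levels differ after treatment to delete Lin9.

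Library totals lay between 5859826 and 5913942 counted reads. Lin9 had 108, 107 and 101 reads in the 4-OHT libraries, against 156, 124 and 159 in control, so 71.1% of its level remained. The count covers the whole gene. Whether the remaining reads come from exons outside a deleted part or from cells that keep Lin9 was not tested. The log2 fold change of Lin9 was -0.49 (SE 0.11; adjusted p = 0.0011 in edgeR). Levels are given as CPM, the reads of a gene relative to library sizes scaled by the TMM method. The epithelial keratin gene Krt8 averaged 1912 CPM in 4-OHT and 1840 CPM in control libraries and was not called, whereas the surfactant genes Sftpc and Sftpa1 had no read and Sftpb had at most 1 read per library. Of 7 tested epithelial markers 3 were lower and 0 higher in edgeR: the adhesion genes Epcam (-0.38) and Cdh1 (-0.14) and the keratin gene Krt7 (-0.25), on the log2 scale. Of 5 tested mesenchymal markers 3 were higher and 0 lower: Vim (0.15), Cdh2 (0.16) and Zeb1 (0.35). Col1a1 (-0.36) and Pdgfra (-0.06) had estimates below 0 and were not called. Over all genes tested, 5.17% were called lower and 4.61% higher. Markers of multiciliated cells, which amplify centrioles, summed to 5.60 to 6.78 CPM in 4-OHT and 5.66 to 7.90 CPM in control libraries over 7 genes found of 8 listed, with Gmnc at 0. Of these genes, Deup1 had 4, 2 and 3 reads in 4-OHT libraries, against 7, 10 and 9 in control, and fell below the filter. Foxj1 (-0.26) and Dnah5 (0.29) were tested and not called. Keratin genes and Vim make up most of the summed levels. The 10 epithelial genes summed to 6048 to 6217 CPM in 4-OHT and 6182 to 6267 CPM in control libraries, and the 8 mesenchymal genes to 3204 to 3258 CPM in 4-OHT and 2904 to 2945 CPM in control libraries. Their part in the results below was not tested. In bulk RNA, fewer cells in a phase of the cell cycle and less RNA per cell cannot be told apart.

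Of the 39 centriole and centrosome genes, Cep85 was lower and Sass6, Cep120 and Cep170 were higher in 4-OHT libraries, while 35 did not pass the test. Calls come from edgeR (quasi-likelihood, two-sided), with p-values adjusted by the Benjamini-Hochberg method over 13355 genes and a threshold of 0.05. The 4 calls make up 10.3% of the list, and 9.79% of all genes tested were called, 5.17% lower and 4.61% higher. The share of the list is thus near the background. The median log2 fold change of the list was -0.04, against 0.0005 over all genes tested, and 22 genes lay below 0 and 17 above it, where 49.8% of all genes tested lay below 0. Without 4-OHT replicate 3 the median of the list was 0.003. The 3 values of each group did not overlap for 12 genes, 5 with 4-OHT below control and 7 above, which is 30.8% of the list against 24.3% of all genes tested.

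The genes together took 0.171% to 0.178% of the reads in 4-OHT libraries and 0.176% to 0.179% in control libraries. The same libraries showed a large change in mitotic genes: 19 of 20 reference genes of G2 and mitosis fell, with a median log2 fold change of -0.79, and 8 of 18 tested reference genes of G1/S fell, with a median of -0.14. Over all genes tested, 5.17% were called lower. Both reference lists were chosen with earlier results of these data known. In the centriole and centrosome list the called changes lay between -0.49 and 0.55 on the log2 scale.

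**Figure D1:**
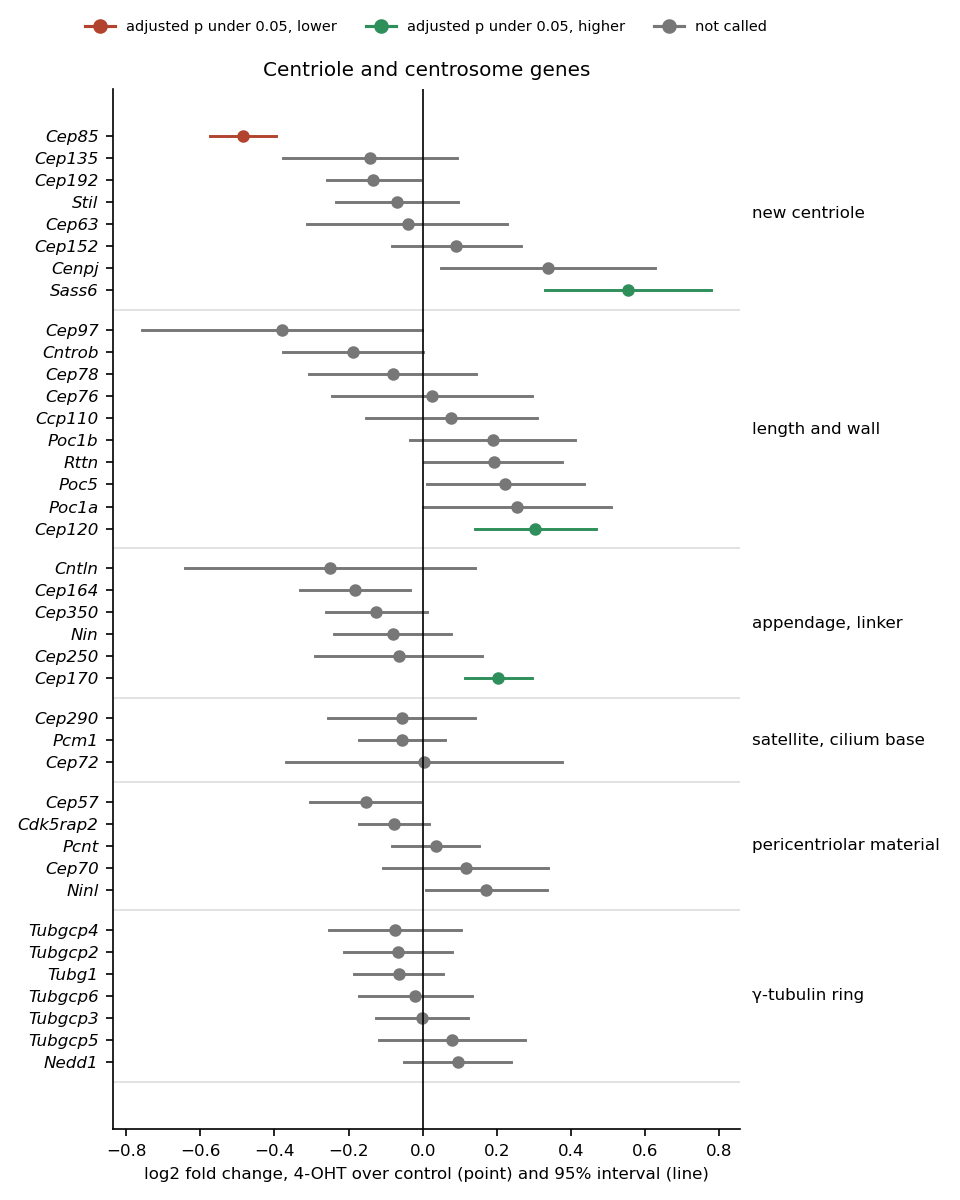
Log2 fold change of 4-OHT over control for the 39 genes, grouped by role and ordered by value within each group. Points are edgeR estimates and lines are 95% intervals, coloured by the test over all genes. Cep85 (-0.49) is the 1 gene called lower and Sass6 (0.55), Cep120 (0.30) and Cep170 (0.20) are those called higher; the intervals of the gamma-tubulin ring genes lie between -0.25 and 0.28.

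Among 8 genes that start a new centriole, 1 was lower, 1 was higher and 6 did not pass, with a median log2 fold change of -0.06. Over all genes tested, 5.17% were called lower and 4.61% higher. With these shares, the role groups are too small for their counts of calls to set any of them apart. Cep85 (ENSMUSG00000037443; chromosome 4, 134129858 to 134187085 in GRCm38.p6), whose protein binds STIL and restrains the kinase NEK2, stood at 139.2, 139.3 and 147.8 CPM in 4-OHT libraries, against 203.7, 203.7 and 189.7 CPM in control libraries. Levels of different genes are not compared because gene lengths were not used. Every 4-OHT library was below every control library. Cep85 averaged 142.1 ± 4.93 CPM in 4-OHT and 199.0 ± 8.05 CPM in control (SD, n = 3 each). On the log2 scale this was -0.49 (SE 0.04, 95% interval -0.57 to -0.40), with an adjusted p of 1.94e-15 in edgeR. The call held under every alternative tried, with adjusted p up to 9.81e-10. No other RefSeq gene overlaps its span.

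Sass6 (ENSMUSG00000027959; chromosome 3, 116594938 to 116630986), which encodes the SAS-6 protein that forms the hub and spokes of the cartwheel, stood at 26.6, 24.97 and 23.9 CPM in 4-OHT libraries, against 17.3, 15.6 and 18.5 CPM in control libraries. The groups did not overlap, and the values rest on 141 to 157 reads in 4-OHT and 91 to 108 reads in control libraries. The mean was 25.2 ± 1.36 CPM in 4-OHT and 17.1 ± 1.45 CPM in control (SD, n = 3 each). The log2 difference was 0.55 (SE 0.11, 95% interval 0.33 to 0.78), and edgeR gave an adjusted p of 0.000168. The change of 46.8% was the largest rise in the list, and it passed without each library in turn (adjusted p up to 0.00469) and in DESeq2 (adjusted p = 0.00988). The span of Sass6 shares 19650 bases with Trmt13, a tRNA methyltransferase gene, and the use of strand in the counting is not known. Trmt13 itself had a log2 fold change of -0.04 (edgeR adjusted p = 0.927).

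**Figure D2:**
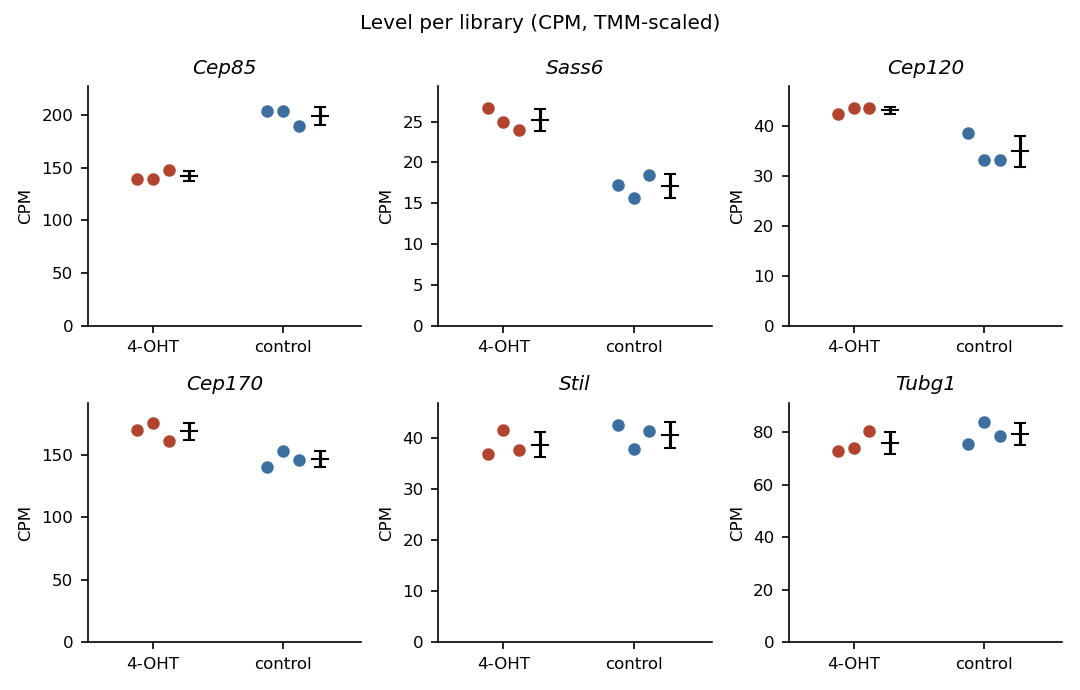
Level per library, in CPM scaled by TMM, for the 4 called genes and for Stil and Tubg1, with 4-OHT libraries on the left and control libraries on the right. Black marks are the mean and SD of 3 libraries. The groups of Cep85, Sass6, Cep120 and Cep170 do not overlap; those of Stil and Tubg1 do.

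Stil, the partner of SAS-6 and PLK4 at the cartwheel, was at 37.0, 41.5 and 37.7 CPM in 4-OHT libraries, against 42.6, 37.8 and 41.5 CPM in control. The groups overlapped, and the log2 fold change of -0.07 (95% interval -0.23 to 0.09, edgeR adjusted p = 0.71) did not pass. Cenpj, which encodes CPAP, a tubulin-binding protein that sets centriole length, was at 13.1, 14.7 and 13.2 CPM in 4-OHT libraries, against 9.41, 11.3 and 11.7 CPM in control. Its groups did not overlap, but with 55 to 87 reads per library the log2 difference of 0.34 (SE 0.15) had an adjusted p of 0.14 in edgeR. Cep192, a scaffold that brings PLK4 to the centriole, was at 59.7, 67.3 and 67.0 CPM in 4-OHT libraries, against 69.0, 71.1 and 72.7 CPM in control. It had a log2 fold change of -0.13 and an SE of 0.06 (adjusted p = 0.209 in edgeR), with groups that did not overlap. Cep152, another PLK4 scaffold, had a log2 fold change of 0.09, its binding partner Cep63 of -0.04 and Cep135, a cartwheel protein gene, of -0.14, and none of these passed.

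Cep85 and Sass6 moved in opposite directions, and their promoters are shown for that reason. The windows run from 250 bases before to 50 after the annotated start (RefSeq, GRCm38.p6) and are printed 5′ to 3′ on the gene's strand. Capitals mark TTTGAA, the core of the cell cycle gene homology region through which MuvB binds DNA, and CCAAT, the NF-Y box, on either strand (ATTGG is CCAAT read on the other strand; the motifs do not overlap here). Cep89, a distal appendage gene, and Aurka, which encodes Aurora A, are shown as centrosome genes outside the list whose RNA fell.
Cep85 (chr4:134187036-134187335, minus strand): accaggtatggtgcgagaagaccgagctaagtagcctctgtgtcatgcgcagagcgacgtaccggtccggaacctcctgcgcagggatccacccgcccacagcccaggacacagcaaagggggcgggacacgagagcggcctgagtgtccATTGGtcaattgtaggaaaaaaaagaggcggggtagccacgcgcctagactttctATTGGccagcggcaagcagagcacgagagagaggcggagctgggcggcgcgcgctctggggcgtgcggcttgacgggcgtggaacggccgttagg
Sass6 (chr3:116594708-116595007, plus strand): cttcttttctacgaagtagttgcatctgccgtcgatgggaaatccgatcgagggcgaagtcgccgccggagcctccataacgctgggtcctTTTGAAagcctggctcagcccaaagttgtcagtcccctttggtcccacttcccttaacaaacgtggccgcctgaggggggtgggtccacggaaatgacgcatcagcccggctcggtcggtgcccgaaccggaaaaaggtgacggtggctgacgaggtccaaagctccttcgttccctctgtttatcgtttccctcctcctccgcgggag
Cep89 (chr7:35396813-35397112, plus strand): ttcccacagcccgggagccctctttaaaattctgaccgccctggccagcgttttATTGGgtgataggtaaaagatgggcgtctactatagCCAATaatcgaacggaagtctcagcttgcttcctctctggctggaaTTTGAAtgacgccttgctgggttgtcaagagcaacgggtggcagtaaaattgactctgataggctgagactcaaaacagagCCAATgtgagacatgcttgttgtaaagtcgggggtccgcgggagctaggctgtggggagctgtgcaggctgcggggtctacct
Aurka (chr2:172370521-172370820, minus strand): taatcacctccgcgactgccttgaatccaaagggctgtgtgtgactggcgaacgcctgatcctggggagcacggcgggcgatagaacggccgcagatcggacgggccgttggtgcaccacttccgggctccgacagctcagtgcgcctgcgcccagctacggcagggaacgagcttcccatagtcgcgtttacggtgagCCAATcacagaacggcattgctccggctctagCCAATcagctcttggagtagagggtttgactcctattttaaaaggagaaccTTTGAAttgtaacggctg

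Cep85, the gene that fell, holds CCAAT at 100 and 45 bases before the start and no TTTGAA or TTCGAA in this window. Sass6, which rose, holds TTTGAA at 159 bases before the start and no CCAAT in this window. Aurka holds TTTGAA at 32 bases after the start and CCAAT at 51 and 19 bases before it, and Cep89 holds TTTGAA at 114 bases before the start with 3 copies of CCAAT. Not all centrosome genes that fell hold both: the windows of Nek2 and Ccdc61 hold CCAAT but no TTTGAA. Odf2, Plk1, Espl1 and Mzt1, which also fell, do hold both. Fgfr1op, which fell too, was not searched, and the search gave no match for Ccne1, another gene that fell. How many of all tested genes hold both motifs was not counted, and a link between the motifs and the falls was not tested. Both motifs also occur together in genes without a call. Poc5 holds TTTGAA at 31 bases after the start and CCAAT at 37 and 5 bases before it. Cep164 holds TTTGAA at 128 bases before the start and CCAAT at 74, 69 and 40 bases before it. These are matches of letters and not measured binding sites.

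Promoter windows were present for 30 of the 40 genes. TTTGAA occurred in 7 of the 30 (23.3%), namely Cdk5rap2, Cep164, Cep170, Cep72, Nin, Poc5 and Sass6, against 14.3% of the 9003 tested genes that have a window and 17.9% of all 32851 windows. TTCGAA, its other spelling, occurred in Cep152 alone (3.33%, against 2.44% of tested genes and 1.56% of all windows). CCAAT occurred in 13 (43.3%, against 43.3% of tested genes and 37.4% of all windows). The E2F motif TTCCCGC occurred in 8, namely Cep152, Cep170, Cep57, Cep70, Cntln, Pcnt, Stil and Tubgcp3 (26.7%, against 10.1% of tested genes and 4.6% of all windows), and of these only Cep170 was called. The TEAD motif GGAATG occurred in Cep250 and Nin (6.67%, against 14.7% of tested genes and 14.7% of all windows). The longer E2F spelling TTTCGCGC occurred in Cep63 (3.33%, against 0.778% of tested genes and 0.323% of all windows), and the short MYB motif AACNG occurred in 28 of the 30 and in 80.7% of tested genes and 80.3% of all windows. All motifs were searched on both strands, a gene with several windows counts once when any of them holds the motif, and base composition was not matched.

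Of 10 genes that set the length and the wall of the centriole, 1 was higher, 0 were lower and 9 did not pass, and the median log2 fold change was 0.13. The shares over all genes tested were 4.61% higher and 5.17% lower. Cep120 (ENSMUSG00000048799; chromosome 18, 53681723 to 53745636), which promotes elongation of the daughter centriole, was at 42.4, 43.5 and 43.6 CPM in 4-OHT libraries, against 38.5, 33.1 and 33.2 CPM in control libraries. The groups did not overlap, and control replicate 1 was nearest to the 4-OHT libraries. Cep120 averaged 43.2 ± 0.681 CPM in 4-OHT and 34.97 ± 3.07 CPM in control (SD, n = 3 each). That is 0.30 on the log2 scale (SE 0.08), with an adjusted p of 0.00751 in edgeR. It did not pass when control replicate 2 (adjusted p = 0.059) or control replicate 3 (0.0638) was left out, nor in DESeq2 (0.119), and it was the only one of the 4 calls to be lost in any alternative tried.

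Rttn, which encodes rotatin, a protein of centriole wall assembly, was at 34.2, 31.9 and 30.7 CPM in 4-OHT libraries, against 26.9, 28.3 and 29.7 CPM in control. The groups did not overlap, yet the log2 fold change of 0.19 with SE 0.09 (adjusted p = 0.223 in edgeR) did not pass. Poc5, a centrin-binding protein gene of the distal wall, likewise had groups that did not overlap and a log2 fold change of 0.22 (edgeR adjusted p = 0.204). Poc1a and Poc1b, paralogues that stabilise the wall, had values of 0.26 (SE 0.13) and 0.19 (SE 0.11) and did not pass.

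The capping proteins showed no call. Ccp110, which encodes the CP110 cap, had a log2 fold change of 0.08, and its partner gene Cep97 one of -0.38. The Cep97 value rests on 29 to 47 reads in 4-OHT and 45 to 51 reads in control libraries, and its 95% interval ran from -0.76 to below 0 (edgeR adjusted p = 0.235). Cep76, a brake on reduplication, had 0.02, Cep78 -0.08 and Cntrob, the gene of the daughter centriole protein centrobin, -0.19. None of these passed.

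Of 6 appendage and linker genes, Cep170 was higher and 5 did not pass, where 9.79% of all genes tested were called. Cep170 (ENSMUSG00000057335; chromosome 1, 176729072 to 176813979), a component of the subdistal appendages that anchor microtubules to the mother centriole, was at 169.7, 174.8 and 160.7 CPM in 4-OHT libraries, against 139.8, 152.7 and 146.0 CPM in control libraries. The groups did not overlap. Its mean was 168.4 ± 7.12 CPM in 4-OHT and 146.2 ± 6.42 CPM in control (SD, n = 3 each), 15.2% higher. On the log2 scale the difference was 0.20 (SE 0.05), with an adjusted p of 0.000757 in edgeR. It passed without each library in turn, with adjusted p up to 0.0311, and in DESeq2 (adjusted p = 0.0291).

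The other 5 genes of this group all had estimates below 0, from -0.25 to -0.06. Cep350, a microtubule-binding centriole protein gene, was at 57.8, 53.8 and 51.4 CPM in 4-OHT libraries, against 59.6, 59.1 and 59.1 CPM in control. Its 3 control values were nearly equal and all above the 4-OHT values, but the log2 fold change of -0.12 with SE 0.07 (adjusted p = 0.291 in edgeR) did not pass. Cep164, the distal appendage gene needed to dock the centriole for a cilium, was at 44.8, 42.2 and 43.3 CPM in 4-OHT libraries, against 50.8, 49.6 and 47.3 CPM in control. Its groups did not overlap and its adjusted p of 0.12 (edgeR, log2 fold change -0.18) was the lowest among genes that did not pass. Nin, the ninein gene of the subdistal appendage, had -0.08, and the linker genes Cep250 and Cntln had -0.06 and -0.25, the last on 30 to 45 reads per library.

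No gene of the centriolar satellites and the cilium base passed, 3 tested, where 9.79% of all genes tested were called. Pcm1, the scaffold of the satellites, was at 89.7, 92.4 and 86.4 CPM in 4-OHT libraries, against 83.5, 96.3 and 99.4 CPM in control. Cep290, a gatekeeper of the ciliary transition zone, was at 27.8, 28.8 and 24.1 CPM in 4-OHT libraries, against 29.6, 25.8 and 28.6 CPM in control. In both genes the groups overlapped, with log2 fold changes of -0.06 each (SE 0.06 for Pcm1 and 0.10 for Cep290). Cep72, which recruits proteins to satellites, had the widest spread relative to its level, 8.02 ± 2.66 CPM in 4-OHT and 8.0 ± 0.718 CPM in control (SD, n = 3 each). Cep131, a satellite protein gene counted under Azi1 (ENSMUSG00000039781), had 121, 89 and 104 reads in 4-OHT libraries, against 99, 107 and 98 reads in control, and a log2 fold change of 0.03 with SE 0.12 (adjusted p = 0.935 in edgeR).

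The 5 genes of the pericentriolar material also gave no call, where 9.79% of all genes tested were called. Pcnt, which encodes the pericentrin scaffold, was at 119.0, 114.4 and 96.7 CPM in 4-OHT libraries, against 100.3, 108.0 and 114.0 CPM in control. Cdk5rap2, the gene of the CEP215 protein that tethers gamma-tubulin rings, was at 127.7, 128.5 and 126.9 CPM in 4-OHT libraries, against 132.8, 139.3 and 132.2 CPM in control. The Pcnt groups overlapped (log2 fold change 0.03, SE 0.06), whereas those of Cdk5rap2 did not, although its log2 fold change of -0.08 with SE 0.05 (adjusted p = 0.372 in edgeR) did not pass. Cep57, a torus protein gene, had -0.15 (edgeR adjusted p = 0.213) and was called lower only when control replicate 2 was left out (-0.24, adjusted p = 0.0386). That library held 46.7 CPM, against 58.4 and 56.1 CPM in control replicates 1 and 3 and 47.5 to 49.2 CPM in the 4-OHT libraries. Its span overlaps Mtmr2 and Fam76b, so its count can hold their reads. Ninl, a ninein-like protein gene, had 0.17 and Cep70, a gamma-tubulin-binding protein gene, 0.12, and neither passed.

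In the gamma-tubulin ring 0 of 7 genes passed in edgeR and in DESeq2, 0 had an unadjusted p under 0.05, and the groups of all 7 overlapped. Over all genes tested, edgeR called 9.79%, 21.2% had an unadjusted p under 0.05 and 24.3% had groups that did not overlap. With these shares, 7 genes are too few for counts of 0 to set the ring apart. Tubg1, the main gamma-tubulin gene, was at 72.6, 74.1 and 80.4 CPM in 4-OHT libraries, against 75.3, 83.8 and 78.3 CPM in control. Tubgcp3, a core subunit of the ring, was at 68.5, 71.4 and 68.2 CPM in 4-OHT libraries, against 65.6, 72.5 and 70.3 CPM in control. The log2 fold change was -0.06 for Tubg1 (95% interval -0.18 to 0.06) and -0.001 for Tubgcp3 (95% interval -0.13 to 0.12). The remaining subunit genes had -0.07 (Tubgcp2), -0.08 (Tubgcp4), 0.08 (Tubgcp5) and -0.02 (Tubgcp6), and Nedd1, the attachment factor of the ring, had 0.09.

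Over these 7 genes the 95% intervals ran from -0.25 to 0.28, so a level of 0.839 times or 1.21 times control bounds them. For all 35 genes without a call the intervals ran from -0.76 to 0.63, or 0.591 to 1.54 times control, and smaller changes were not detectable for the genes with the fewest reads (a mean of 39.2 per library for the lowest). Tubg2, the near-identical second gamma-tubulin gene, held 45 to 54 reads in 4-OHT and 43 to 57 in control libraries, and reads of these near copies may have been split or lost in counting.

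A further 9 genes had an unadjusted p under 0.05 and failed the adjustment. They were Cenpj, Poc1a, Poc5, Rttn and Ninl with estimates above 0, and Cep192, Cep97, Cep164 and Cep57 below 0. In all, 33.3% of the list and 21.2% of all genes tested had an unadjusted p under 0.05. The authors' deposited table lists all 39 genes, and at an FDR of 0.05 it has the same 1 gene lower and the same 3 higher, with log2 fold changes within 0.004 of those given here.

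**Figure D3:**
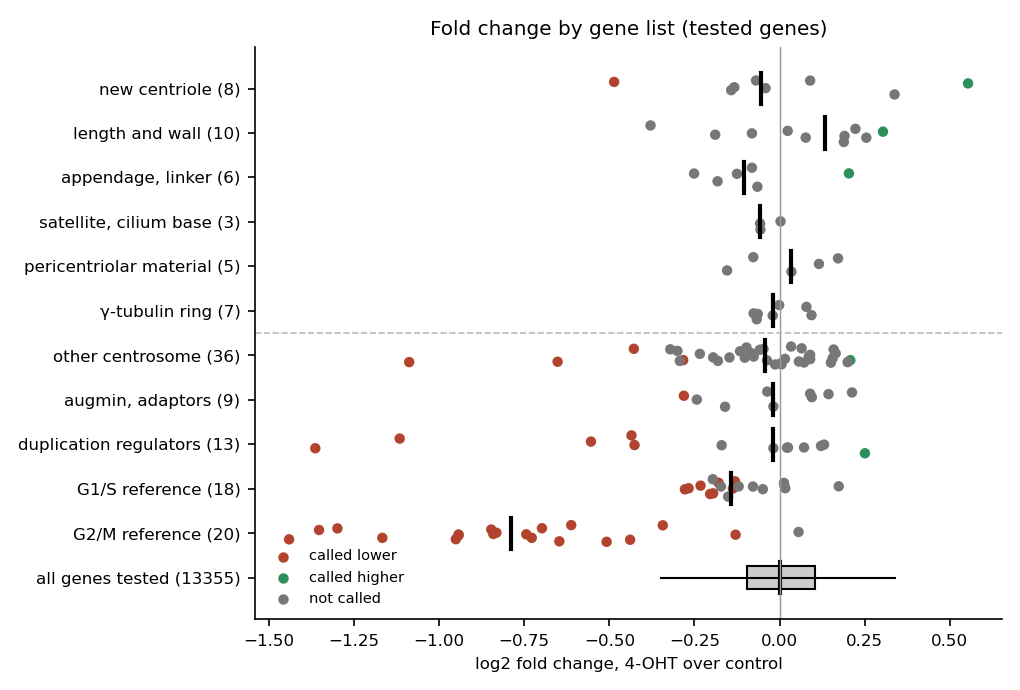
Log2 fold change of 4-OHT over control for each tested gene, by list, with the number of genes in brackets and the median as a black line. The lowest row gives the quartiles and the 5th to 95th percentile of all genes tested (-0.35 to 0.34). The medians of the 6 role groups above the dashed line lie between -0.10 and 0.13, while the G2/M reference genes have a median of -0.79.

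Other genes of the centrosome, outside the list, included larger falls. Of 36 tested genes of the centriole and centrosome, edgeR called 4 lower and 1 higher, 31 did not pass, and the median was -0.04. Over all genes tested, 5.17% were called lower and 4.61% higher. Cep89, a distal appendage gene, was at 12.6, 14.2 and 14.8 CPM in 4-OHT libraries, against 27.6, 28.9 and 31.9 CPM in control, which is -1.09 on the log2 scale (SE 0.12; adjusted p = 1.07e-12 in edgeR). Every 4-OHT library of Cep89 held less than every control library. Odf2, which encodes cenexin of the mother centriole's appendages, was at 46.1, 51.3 and 49.9 CPM in 4-OHT libraries, against 73.6, 75.05 and 82.8 CPM in control, or -0.65 on the log2 scale (SE 0.07; adjusted p = 3.58e-13 in edgeR).

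Fgfr1op, a gene of a centriolar protein, fell by 0.28 on the log2 scale, and Ccdc61, named after its value was seen, fell by 0.43 (adjusted p = 0.0723 in DESeq2). Sdccag8, a gene of centriolar and ciliary function, rose by 0.21. Of 9 tested augmin and ring adaptor genes, Mzt1, which encodes a small subunit that activates the ring, fell by 0.28 (adjusted p = 0.0621 in DESeq2) and 8 did not pass. Of all genes tested, 9.79% were called in edgeR. Haus3 and Haus5 are listed at 0 in every library, and whether their RNA is absent or their reads were lost in counting was not tested.

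Among 13 tested regulators of duplication, edgeR called 5 lower and 1 higher, and 7 did not pass. The shares over all genes tested were 5.17% lower and 4.61% higher. Plk1 was at 34.1, 41.8 and 39.9 CPM in 4-OHT libraries, against 104.2, 100.8 and 93.2 CPM in control, and Aurka was at 39.0, 42.2 and 40.6 CPM in 4-OHT libraries, against 88.5, 93.6 and 81.9 CPM in control. Espl1, the separase gene that licenses the next round of duplication, fell by 0.55 and Nek2, a kinase that separates centrosomes, fell by 0.43 on the log2 scale. Ccne1, a cyclin gene named after its value was seen, fell by 0.43 (adjusted p = 0.122 in DESeq2). Plk4, the kinase that starts duplication, was chosen after seeing its values and was at 84.6, 77.8 and 83.0 CPM in 4-OHT libraries, against 70.5, 66.8 and 68.9 CPM in control (log2 difference 0.25, SE 0.06; adjusted p = 0.00196 in edgeR and 0.0551 in DESeq2).

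**Figure D4:**
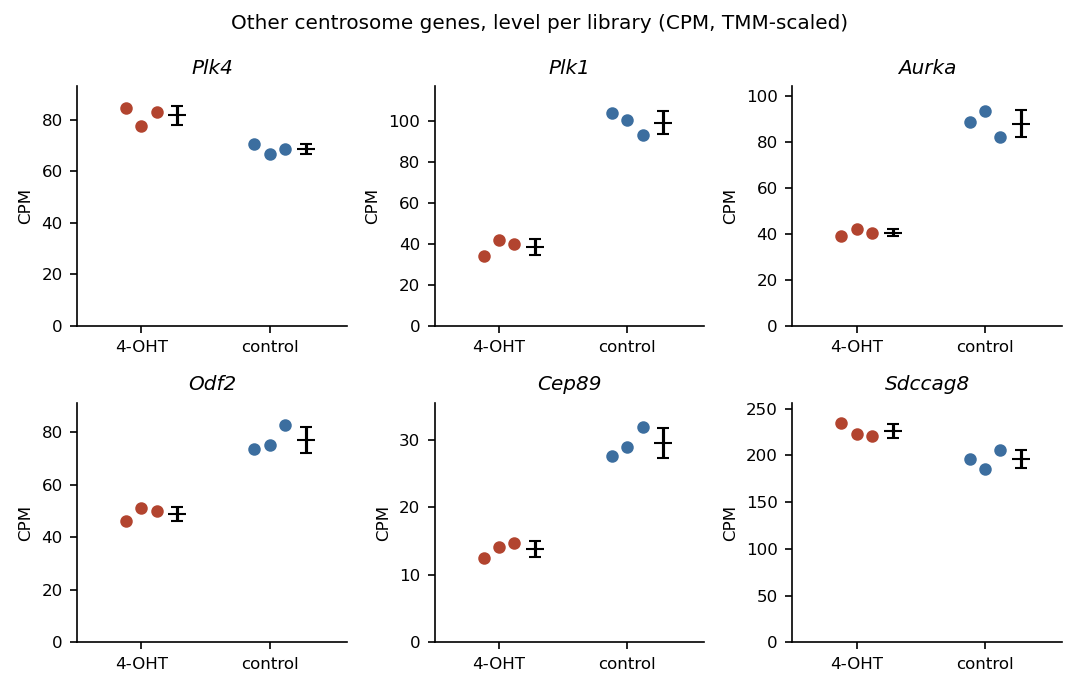
Level per library, in CPM scaled by TMM, of 6 centrosome genes outside the list, with 4-OHT libraries on the left and control libraries on the right; black marks are the mean and SD of 3 libraries. Plk1, Aurka, Odf2 and Cep89 are lower and Plk4 and Sdccag8 higher in 4-OHT libraries, with no overlap of the groups in any of the 6 genes.

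**Figure D5:**
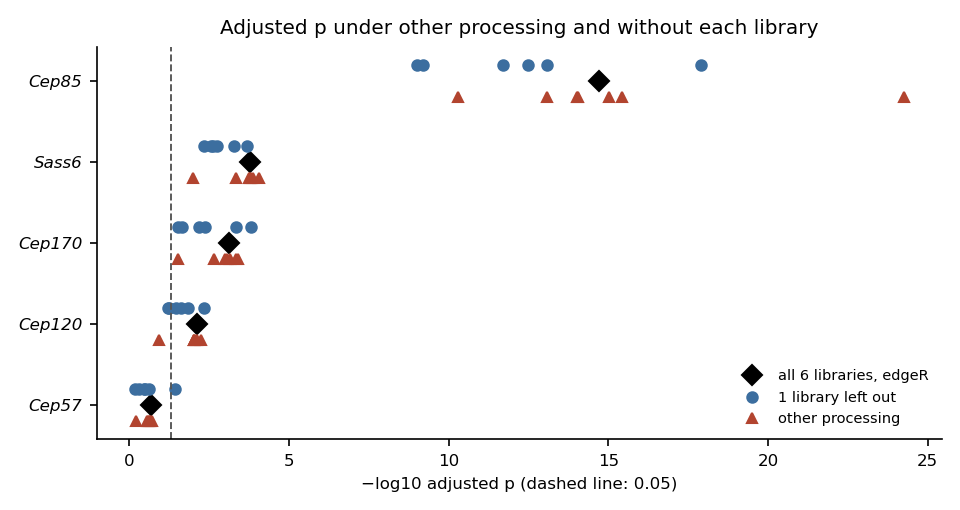
Adjusted p of the 4 called genes and of Cep57 on a −log10 axis, for the edgeR test on all 6 libraries (diamond), without each library in turn (circles) and under 7 other ways of processing (triangles). The dashed line is 0.05. Cep85, Sass6 and Cep170 stay to its right throughout, Cep120 crosses it without control replicate 2 or 3 and in DESeq2, and Cep57 passes only without control replicate 2.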

How the data were processed

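The authors deposited whole-number read counts per Ensembl gene, not normalised, for 6 RNA-seq libraries of polyadenylated RNA, made with the NEBNext Ultra RNA kit per the labels. They also deposited a table of log2 fold changes, log2 mean CPM, p-values and FDR for 17506 genes, per the file headers. Per the submitters' processing notes, edgeR, bedtools 2.26.0, Bowtie 1.1.2, Bowtie2 and TopHat2 2.1.0 were used, with no roles assigned, and GRCm38.p6 and mm10 are the mouse builds named. Which program counted reads, and whether by strand, is not given in the sources used here. In RefSeq, spans of at least 11 of the 39 genes overlap a gene with reads. Overlapping genes were matched by symbol, so those under an older symbol in the matrix would be missed. ChIP-seq samples (27 of 33) were not analysed here.

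Repeated lines (27, identical, 0.109% of reads) were kept once. In edgeR 4.0.16 (R 4.3.3), filterByExpr (minimum count 10, total 15) left 13355 genes with 99.7% of reads, scaled by TMM, and the quasi-likelihood F test with robust dispersion compared 4-OHT with control, without a block. Intervals are 95% and come from the SE and the degrees of freedom of that test. Alternatives were 2 scalings, 2 filters, DESeq2 1.42.0 on the filtered genes, limma-voom 3.58.1, a replicate block and leaving out each library. Libraries of the same group differed only a little more than random sampling of reads would give. For each pair, chi-square divided by its degrees of freedom lay between 1.26 and 1.48. The common dispersion in edgeR corresponds to a coefficient of variation of 2.58% between libraries of a group, beyond read sampling. The p-values rest on this small spread, which may be technical.

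The list, the role groups, the further lists and the motifs were chosen with earlier results of these data known, so no test is given for a list as a whole. All members are named; per-library values are given for those called and, in role groups with fewer than 2 called, for those of highest mean CPM up to 2 per group; Stil, Cenpj, Cep192, Cep164 and Cep57 were added after their values were seen. Mean CPM served only to choose them. Genes of the further lists are named if called, up to 4 per list by p, and others as stated. The G1/S and G2/M lists were summarised only. Gene spans and promoter sequences are from RefSeq, GRCm38.p6. Endothelial markers (5 genes) summed to 8.48 to 8.60 CPM in 4-OHT and 7.36 to 9.94 CPM in control libraries.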

Additional observations from a re-analysis of the deposited data

How the results depend on the processing

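Each of the 39 genes was refitted under 13 alternatives. Of the 507 values obtained, 503 kept their side of the threshold. The exceptions were Cep120, whose call was lost in 3 (adjusted p 0.059 to 0.119), and Cep57, which gained one without control replicate 2; the cause was not tested. The sign of 10 genes without a call changed in some alternative. Cep85 stayed lower, with log2 fold changes of -0.52 to -0.47, Sass6 higher (0.49 to 0.61) and Cep170 higher (0.17 to 0.24). The number of listed genes called lower was 1 to 2, and higher 2 to 3, without each library in turn. The median of the list lay between -0.05 and 0.003 over all alternatives, less than 1 SD between libraries from the reported value (SD 0.0453).

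Over all genes, DESeq2 called 367 lower and 209 higher, against 691 and 616 in edgeR. Leaving out 1 library gave 508 to 643 lower and 403 to 542 higher; the 403 came without control replicate 1. With the replicate number as a block, 665 were lower and 579 higher, and the listed genes called were 1 and 3. Libraries of the same number did not deviate together (r between -0.027 and 0.010 over 13355 genes). No pairing by number was seen, but counting noise could hide a weak one. The block changed no call in the list. Genes with few reads, such as Cep97, Cntln and Cep72 (29 to 64 per library), have wide intervals.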
